A study of Drosophila melanogaster with 3 samples.

Results

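Heads of adult Drosophila melanogaster with a constitutively active form of protein kinase A (PKA-CA) were compared with heads carrying a dominant-negative form (PKA-DN). The comparison used 2 of the 3 arrays of the study, 1 for each genotype, chosen by their titles, and the ratios of PKA-CA over PKA-DN do not involve the control array. Each gene was described by the log2 ratio of its signal in PKA-CA over its signal in PKA-DN. A gene was taken where a probe set carried its name alone, the brightest probe set stood for it, and the upper 50% of genes by mean signal over both arrays were compared, which gave 5991 of 11982 named genes. These are called the compared genes.

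All flies carried p247-Gal4, a driver of mushroom body neurons, and tub-gal80[ts], a temperature-sensitive repressor of Gal4 made under a tubulin promoter. PKA-CA flies also carried UAS-PKA-CA, PKA-DN flies UAS-PKA-DN, and control flies the driver and repressor with no PKA transgene. Rearing was at 18 °C, and 12 to 16 h at 32 °C then took away the repression. Whole heads were taken at an age of 4 to 6 days. Heads were sieved from frozen flies, so each array held RNA of pooled heads, and the sources do not say how many, of which sex, or which coding sequences the transgenes carried. The submitters' design text lists the transgenes in an order that would make PKA-DN the form with high activity. The series title speaks of the mushroom bodies, while the sample labels give the tissue as the total head. The study asked which genes differ with high or low PKA activity. The groups are called here by their transgenes only, and PKA activity itself was not measured.

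PKA is a kinase that is activated when cyclic AMP (cAMP), made by adenylyl cyclases and broken down by phosphodiesterases, releases its catalytic subunits from regulatory subunits. In the fly brain this pathway acts in the Kenyon cells of the mushroom bodies, the centre of olfactory learning, where the classical memory genes rutabaga and dunce encode an adenylyl cyclase and a phosphodiesterase. Kenyon cells contribute little of a head's RNA, and the arrays also held transcripts of the rest of the brain, the eyes, antennae, muscle, fat body and cuticle. In such mixed RNA fewer cells of a type and less RNA per cell cannot be told apart.

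The values are MAS5 signals on a linear intensity scale, which had been scaled to the same trimmed mean on every array. Neither genotype was replicated, so no difference has an error or a test: each is a difference between 2 arrays, and "higher" and "lower" refer to the PKA-CA array relative to the PKA-DN array. The median signal over all 18952 probe sets was 88.2 for PKA-DN and 82.8 for PKA-CA, and the highest signal among 99 negative-control probe sets was 77.8 and 70.9, after 1 more with a signal above 1000 had been left out. The lowest mean signal of a compared gene was 251.5, about the level of MED6 at 251.52 and Dph3 at 251.48 just inside the limit and of Rnmt at 251.44 and CG31111 at 251.28 just outside it. The 3'/5' signal ratio, a measure of RNA integrity, was 2.05 for PKA-DN and 2.0 for PKA-CA with GAPDH, 2.29 and 1.7 with actin, and 2.33 and 3.01 with eIF-4a, so the arrays were not ordered the same way by the last 2.

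The head profiles were close to each other. Across the 5991 genes log2 signals correlated at r = 0.979, a value across genes, which are not independent replicates. The log2 ratios had a median of 0.001, an SD of 0.281 and quartiles of -0.15 and 0.15, and 5739 genes (95.8%) lay within 1.5-fold. At 2-fold or more, 20 genes (0.334%) were higher and 22 (0.367%) were lower. At 1.5-fold or more, 134 genes (2.24%) were higher and 118 (1.97%) were lower. By any amount, 50.2% of genes were higher and 49.8% lower. These shares are the background for the counts of gene families and tissues that follow.

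**Figure D1:**
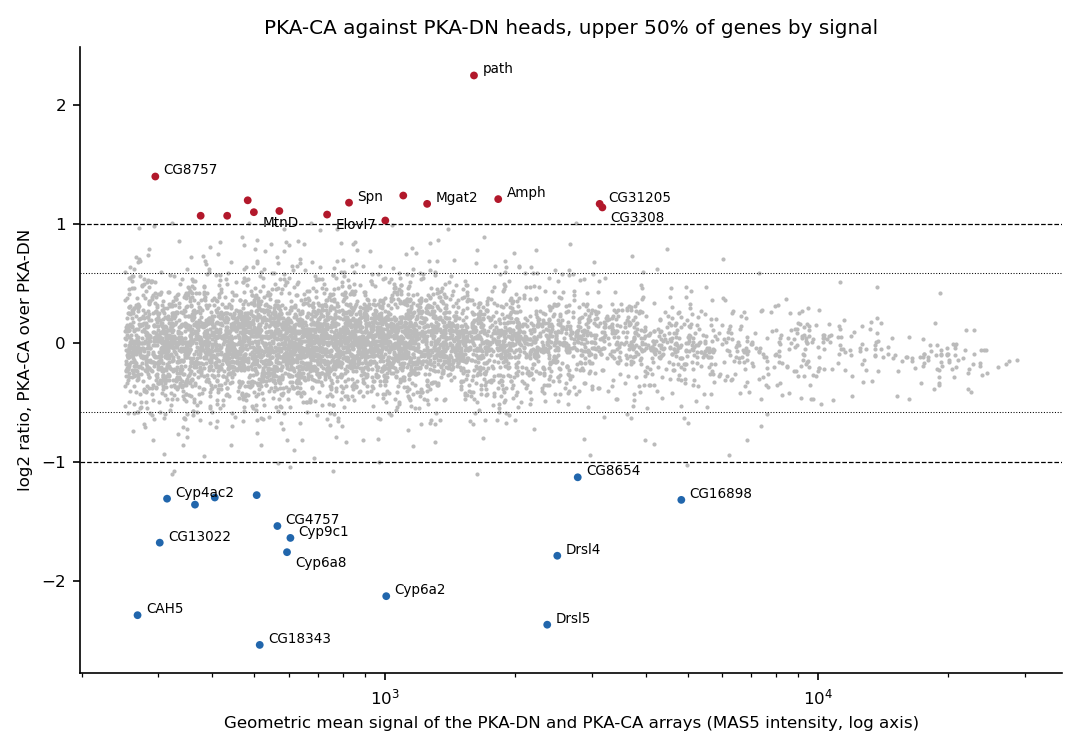
Log2 ratio of PKA-CA over PKA-DN (vertical axis) against the geometric mean signal of both arrays (horizontal log axis, MAS5 intensity) for the 5991 genes compared. Red and blue points are the 15 genes with the highest and the 15 with the lowest ratios, dashed lines mark 2-fold and dotted lines 1.5-fold; path stands alone at the top with 2.25, and CG18343, Drsl5, CAH5 and Cyp6a2 lie lowest.

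A gene's second probe set gives a rough view of measurement error within these 2 arrays. It can be dimmer than the signal limit and can match other transcripts of the gene. Differences between pools of heads are not part of it. For 481 genes a second probe set was above the negative controls, and 60.1% of these had the same sign as the brightest one. The log2 ratios of the 2 probe sets correlated at r = 0.29 across genes, and their difference had an SD of 0.38. Of 28 such genes whose brightest probe set passed 1.5-fold, 21 had the same sign on the second and 4 passed 1.5-fold there too. A log2 ratio smaller than 0.38 is therefore within 1 SD of the disagreement between probe sets.

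The gene with the highest ratio was pathetic (path), which encodes an amino acid transporter. Its signal was 736 in PKA-DN, 3507 in PKA-CA and 2952 in the control, a log2 ratio of 2.25 or 4.77-fold. The control thus lay close to PKA-CA, and the PKA-DN array was the low one. None of the other 17 amino acid transporter genes compared passed 1.5-fold, their range being from CG8785 at -0.54 to sbm at 0.27.

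Of the other genes with the highest ratios, Amphiphysin (Amph), which shapes membrane tubules in muscle and photoreceptors, had signals of 1201 in PKA-DN, 2779 in PKA-CA and 2473 in the control (1.21). Mgat2, an N-glycan glycosyltransferase gene, had 834, 1880 and 1482 in the same order (1.17). Elovl7, of the fatty acid elongase family, had 506, 1071 and 1190 (1.08), and SRPK, a kinase of splicing factors, had 701, 1434 and 1206 (1.03). In these 4 genes, as in path, the control array was nearer to PKA-CA.

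The control was nearer to PKA-DN for the metallothionein gene MtnD, which encodes a metal-binding protein, with 341 in PKA-DN, 730 in PKA-CA and 304 in the control (1.10). The same held for Spinophilin (Spn), a synaptic scaffold for a protein phosphatase, which had 550, 1244 and 656 (1.18), but its 2 other probe sets had ratios of 0.35 and -0.20. It also held for NT5E-2, a nucleotidase gene, with 299, 626 and 380 (1.07). The noncoding RNA alphagamma-element CR32865, transcribed at a heat-shock locus, had 717, 1697 and 1233 (1.24), with the control nearer to PKA-CA, on a probe set whose design name marks possible matches to other sequences.

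The rest of the 15 highest genes have no name beyond their gene number. CG8757 had 182 in PKA-DN, 480 in PKA-CA and 122 in the control (1.40), so PKA-CA was the array that stood apart. CG3308 was bright on all arrays, with 2141, 4718 and 5776 (1.14), and here PKA-DN stood apart. The remaining 4 were CG10814 (1.20), CG31205 (1.17), CG8157 (1.11) and CG11842 (1.07).

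The lowest ratio belonged to CG18343, with signals of 1241 in PKA-DN, 213 in PKA-CA and 824 in the control, a log2 ratio of -2.54 or 5.82-fold. The carbonic anhydrase gene CAH5 had 593, 122 and 380 (-2.29), while the other 5 carbonic anhydrase genes compared lay between -0.29 (CAH2) and 0.33 (CAH9). For both CG18343 and CAH5 the control lay between the PKA arrays. CG13022 had 540, 169 and 472 (-1.68), and CG4757 had 963, 331 and 1232 (-1.54), so in these the PKA-CA array was the low one.

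2mit, which encodes a leucine-rich repeat protein of the nervous system, had 584 in PKA-DN, 228 in PKA-CA and 292 in the control (-1.36). All 3 of its probe sets were lower, the others by -1.17 and -3.54, although these were dim. CG16898 had 7641, 3059 and 4220 (-1.32) and its neighbour on the chromosome, CG8654, had 4127, 1883 and 3391 (-1.13). CG9662 had 789, 325 and 299 (-1.28). The other 7 of the 15 lowest genes encode antimicrobial peptides or cytochrome P450 enzymes and are described with their families.

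**Figure D2:**
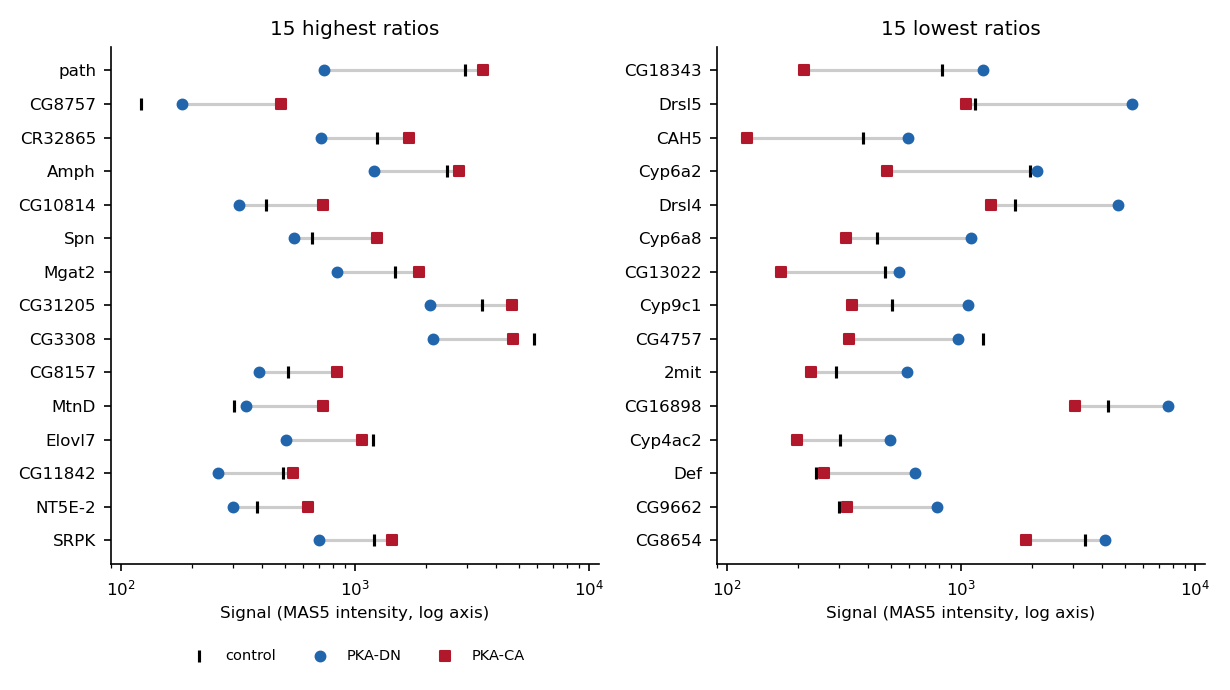
Signal (MAS5 intensity, log axis) of the 15 genes with the highest ratios (left) and the 15 with the lowest (right) on the PKA-DN array (blue circles), the PKA-CA array (red squares) and the control array (black ticks), 1 array each. The control tick for path is close to PKA-CA at 2952, and that for Cyp6a2 is close to PKA-DN at 1968.

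The place of the control array shows which PKA array stood apart. Of the 20 genes at least 2-fold higher, the control was nearer to PKA-CA on the log2 scale for 13 and nearer to PKA-DN for 7. Of the 22 genes at least 2-fold lower, it was nearer to PKA-CA for 13 and nearer to PKA-DN for 9. These counts include genes with the control outside the range of the PKA arrays. Among the higher genes it lay beyond PKA-DN for 3 and beyond PKA-CA for 3, and among the lower genes for 2 and 3. Among the higher genes 5 differed by 2-fold or more between PKA-DN and the control and 3 between PKA-CA and the control, and among the lower genes these counts were 9 and 6.

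Antimicrobial peptide genes held several of the lowest ratios. These peptides are secreted into the blood by the fat body after infection or injury, under the Toll and Imd pathways. The list held 22 genes on the arrays, of which 15 were compared. Of these 13 were lower and 2 higher, with a median log2 ratio of -0.67 against 0.001 over all genes; 8 were 1.5-fold or more lower and 5 were 2-fold or more lower.

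The drosomycin family, antifungal peptides, had 3 of its 7 genes compared and all 3 were at least 2-fold lower. Drsl5 had signals of 5383 in PKA-DN, 1044 in PKA-CA and 1140 in the control (-2.37). Drsl4 had 4653, 1344 and 1699 (-1.79), and Drs itself had 7144, 3491 and 3786 (-1.03). In each the control lay near PKA-CA and PKA-DN was the high array. Drsl4 and Drsl5 are neighbours on chromosome 3L and related in sequence, so their values are less certain than those of genes without close relatives.

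Peptides of other families followed. Defensin (Def) had 636 in PKA-DN, 258 in PKA-CA and 239 in the control (-1.30), Diptericin B (DptB) 2384, 1114 and 606 (-1.10), and Metchnikowin (Mtk) 6297, 3969 and 3867 (-0.67). Listericin had 4371, 3404 and 4761 (-0.36), so there the PKA-DN array was not the high one. DptB was the one of these with a control signal well below both PKA arrays.

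The Bomanins, short peptides induced through Toll, were all 8 compared, 6 lower and 2 higher, with a median of -0.38. BomS4 had 8650 in PKA-DN, 4502 in PKA-CA and 4709 in the control (-0.94), and BomS5 had 9126, 5168 and 7288 (-0.82). BomBc2 had -0.45, BomT2 -0.42, BomS6 -0.34 and BomS2 -0.24. The higher members were BomT3, with 3135, 3932 and 3438 (0.33), and BomBc3 at 0.10. The family thus spanned less than the drosomycin genes did.

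The 7 antimicrobial genes below the signal limit were dim on both PKA arrays, the brightest being CecB at 149 in PKA-DN and 68.8 in PKA-CA. Genes that detect microbes or carry the signal had 6 of 24 higher and 18 lower with a median of -0.16, and none passed 1.5-fold. The lowest was IKKbeta, the Imd pathway kinase gene, at -0.57, followed by GNBP2 at -0.42 and Myd88, the Toll adaptor gene, at -0.30. The highest were spz, which encodes the Toll ligand, at 0.41, PGRP-SB1 at 0.31 and Tab2 at 0.21. Both prophenol oxidase genes of crystal cells, named here after their values were seen, differed little between the PKA arrays, PPO1 with 409 and 405 (-0.01) and PPO2 with 631 and 663 (0.07), while the control had 1041 and 1824.

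Cytochrome P450 enzymes oxidize hormones, fatty acids and foreign compounds, and those of the Cyp4, Cyp6 and Cyp9 families are often induced by toxins. The arrays held 81 P450 genes, and 43 were compared. Of these 31 were lower and 12 higher, with a median of -0.20 (-0.14 after the median of each gene's length class, described below, was subtracted). None was 1.5-fold higher, 8 were 1.5-fold or more lower, and 5 were 2-fold or more lower.

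Cyp6a2, a xenobiotic-induced enzyme gene, had 2107 in PKA-DN, 482 in PKA-CA and 1968 in the control (-2.13), so PKA-CA stood apart. Cyp6a8 had 1096, 323 and 435 (-1.76) and Cyp9c1 had 1070, 343 and 507 (-1.64), so there PKA-DN was the high array. Cyp4ac2 had 496, 199 and 304 (-1.31), and its neighbour Cyp4ac1 had 2339, 1558 and 2282 (-0.59). Cyp4d8 (-1.01), Cyp9h1 (-0.86) and Cyp4e3 (-0.63) completed the genes past 1.5-fold. The highest ratios were those of Cyp6a9 at 0.44, Cyp4d21 at 0.38 and Cyp4d1 at 0.36.

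By family, 13 of 15 Cyp6 genes were lower, with a median of -0.31, as were 8 of 12 Cyp4 genes (-0.22) and 4 of 5 Cyp9 genes (-0.35). The 4 Cyp12 genes, mitochondrial P450s, were split with a median of 0.02. P450 genes are mostly short, and among genes of the second length class 25 of 30 P450 genes were lower with a median of -0.29, against 732 of 1166 other genes and a median of -0.06.

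Other detoxification families had medians that were lower by less before subtraction of the length class. Of 24 glutathione transferase genes compared, out of 34 on the arrays, 19 were lower with a median of -0.11 (-0.07 after subtraction). The epsilon class had 10 of 11 lower and a median of -0.33. It was led by GstE11 at 523 in PKA-DN, 319 in PKA-CA and 633 in the control (-0.71) and GstE7 at 1598, 1008 and 1319 (-0.67). Classes other than epsilon and delta had 8 of 10 lower, with a median of -0.07. The delta class had 3 genes compared, and GstD1, a bright gene, had 11759, 12481 and 15267 (0.09). Carboxylesterases had 6 of 9 lower (median -0.18), with Est-Q at 2403, 1507 and 2878 (-0.67) and alpha-Est2 at 1982, 1318 and 736 (-0.59). After subtraction the carboxylesterase median was -0.22, below the -0.14 of P450 genes. UDP-glycosyltransferases had 8 of 13 lower (-0.10, or -0.07 after subtraction with 7 below 0), among them Ugt317A1 at 449, 272 and 296 (-0.72).

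Together the detoxification lists counted 64 lower and 25 higher genes with a median of -0.14. Of these genes 13 were 1.5-fold or more lower and none 1.5-fold higher. After subtraction of the length class the median was -0.10, with 61 genes below 0 and 28 above. The median length of these genes was 2089 bases, and short genes in general were mostly lower, as described below. Antioxidant enzyme genes were not lower as a list, with 9 of 13 higher and a median of 0.04. The peroxiredoxin gene Prx6c was the one past 1.5-fold, at 498, 758 and 281 (0.61).

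Genes of the head fat body, which surrounds the brain and stores lipid, were mostly lower. Of 18 genes compared 16 were lower, the median was -0.26 (-0.36 after subtraction of the length class), and none passed 1.5-fold. The lipase family gene CG5966 had 3151 in PKA-DN, 2214 in PKA-CA and 3463 in the control (-0.51), Lip4 had 404, 292 and 463 (-0.47), and Lsd-1, a coat protein of lipid droplets, had 9638, 7106 and 9550 (-0.44). In these 3 the control was close to or above PKA-DN. It was nearer to PKA-CA for 2 other lower genes, named after their values were seen. Lsp2 had 25980, 19498 and 16269 (-0.41), and AGBE had 1460, 1111 and 1002 (-0.39). The lower genes thus differed in which PKA array stood apart. Lsd-2, the other droplet coat protein, had 0.11 and the lipase gene brummer (bmm) 0.12.

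Of the female fat body genes, the yolk protein genes Yp1, Yp2 and Yp3 had ratios of -0.27, -0.20 and -0.39 at signals between 19322 and 27940, among the highest on the arrays. The list had 4 of 6 lower and a median of -0.12, which was -0.01 under quantile normalization. Markers of the male reproductive tract and testis, absent from heads, gave no compared gene among 25, and 22 of these were at or below the negative controls on the PKA-DN array. Their signals summed to 752 (PKA-DN) and 681 (PKA-CA), and that of 18 ovary markers was 621 and 561.

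The ratios moved with gene length. The compared genes with a known length were split by it into 5 classes of nearly equal size. From the shortest class to the longest the median ratio was -0.06, -0.07, -0.03, 0.04 and 0.14, and the share of genes higher in PKA-CA was 38.2%, 36.7%, 44.9%, 58.0% and 73.0%. In the longest class, with a median length of 19664 bases, 58 genes were 1.5-fold or more higher and 12 lower, while in the shortest, with a median of 1030 bases, 20 were higher and 43 lower. Classes by signal showed no such order, with medians between -0.02 and 0.02. Genes of the nervous system are long, so lists below are given with the median after subtraction of the class medians in parentheses; the part of length in the difference between the arrays was not tested.

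**Figure D3:**
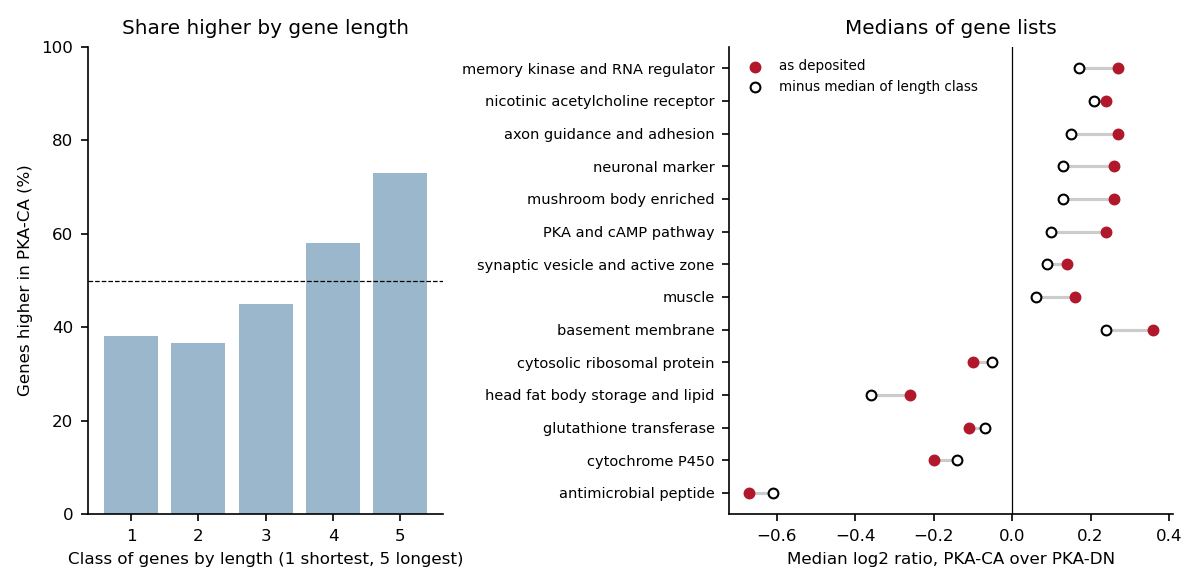
Left, share of genes (%) higher in PKA-CA in each of 5 classes of genes by length, from 38.2% in the shortest to 73.0% in the longest, with the dashed line at 50%. Right, median log2 ratio of 14 gene lists as deposited (red) and after the median of each gene's length class was subtracted (open); most lists of neuronal genes move toward 0 and stay above it, and the antimicrobial list stays lowest at -0.61.

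Neuronal genes were mostly slightly higher. Over 15 lists of genes of brain neurons, which overlap in some members, 168 of 221 compared genes were higher and 53 were lower; the median was 0.18 (0.10 after subtraction of the length class). Of these 12 were 1.5-fold or more higher and 2 were 1.5-fold or more lower. Within the longest class, the 138 genes on these lists had a median of 0.27 with 121 higher. The 1058 other genes had 0.12 with 752 higher. These groups were not matched in length, with median lengths of 28289 bases for listed genes and 19078 for the others. Subtraction of a class median likewise leaves differences in length within a class. In the shortest class, where 38.2% of all genes were higher, the 14 listed genes were split, 7 higher and 7 lower. After subtraction 8 of these 14 were above 0, with a median of 0.08.

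Among neuronal markers, some of them of single transmitter types, 16 of 18 were higher with a median of 0.26 (0.13 after subtraction). The 16 include VGlut, level at 0.00. The RNA-binding protein gene elav, the standard marker of neurons, had 421 in PKA-DN, 637 in PKA-CA and 619 in the control (0.60), and its relative fne had 3907, 5378 and 4914 (0.46). For both the control was close to PKA-CA. The lowest were Ddc, which makes dopamine and serotonin, at -0.20 and Gad1, which makes GABA, at -0.07. Of other transmitter enzyme genes, named after their values were seen, ChAT, which makes acetylcholine, had 0.29 and Hdc, which makes histamine, had 0.14. Tdc1, of the biogenic amine synthesis list, had -0.14. That list had 4 genes higher and 4 lower, with a median of 0.06 (0.02 after subtraction).

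Receptors for transmitters were higher in nearly all cases. All 8 nicotinic acetylcholine receptor subunit genes compared were higher, with a median of 0.24 (0.21 after subtraction, when 7 were above 0). nAChRalpha3 had 355 in PKA-DN, 628 in PKA-CA and 469 in the control (0.82), nAChRbeta1 had 2229, 3331 and 2460 (0.58) and nAChRalpha4 had 392, 503 and 458 (0.36). The smallest ratio was that of nAChRalpha5 at 0.08. The control lay between the PKA arrays for these first 3 subunits.

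Of 10 genes for GABA, glutamate and histamine receptors 9 were higher, with a median of 0.22 (0.08). They were led by the NMDA receptor subunit gene Nmdar1 at 298, 413 and 309 (0.47), and the histamine-gated channel gene ort, which acts downstream of photoreceptors, was the lower one at -0.02. Of 8 receptors for amines and muscarinic receptors 7 were higher, with a median of 0.34 (0.20). The dopamine receptor gene Dop2R had 357, 520 and 471 (0.54), mAChR-B had 0.43 and the octopamine receptor gene Octbeta1R had 0.40, while the serotonin receptor gene 5-HT2A had -0.21. None of these 18 genes passed 1.5-fold.

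All 8 genes for sodium and calcium channels and their partners were higher, with a median of 0.23 (0.09), from the sodium channel gene para at 0.06 to unc80 at 0.48. Potassium channel genes had 11 of 15 higher and a median of 0.16 (0.04). Shaker (Sh) had 1622 in PKA-DN, 2318 in PKA-CA and 1984 in the control (0.52), the calcium-activated channel gene slo 1297, 1824 and 1691 (0.49), and Hyperkinetic (Hk), which encodes a partner of Shaker, 1607, 2187 and 1409 (0.44). Elk had 471, 220 and 356 (-1.10) and was the one ion channel gene past 2-fold.

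Genes of synaptic vesicles and active zones had 23 of 29 higher and a median of 0.14 (0.09). The calcium sensor gene Frq1 had 862 in PKA-DN, 1450 in PKA-CA and 1273 in the control (0.75). The active zone scaffold gene Rim had 1435, 2248 and 2086 (0.65), and its other probe sets were higher too, at 0.36 and 0.21. Syt7, of the synaptotagmin family, had 0.58. Rop, which encodes the syntaxin-binding protein of vesicle fusion, was lowest at 1694, 1355 and 1626 (-0.32).

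Genes for axon guidance and adhesion, the longest of these lists with a median length of 39009 bases, had 27 of 31 higher and a median of 0.27 (0.15). The receptor phosphatase gene Lar had 878 in PKA-DN, 1524 in PKA-CA and 1073 in the control (0.80), and another receptor phosphatase gene, Ptp10D, had 214, 313 and 330 (0.55). The guidance receptor gene robo1 had 468, 662 and 287 (0.50), with the control below both. The lowest member was the Toll family gene 18w at -0.21.

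Neuropeptide genes were split evenly, 13 higher and 13 lower with a median of 0.00 (0.02), and these genes are short. Pdf, the peptide of the clock neurons, had 876 in PKA-DN, 1322 in PKA-CA and 1101 in the control (0.59). Ilp5, an insulin-like peptide of neurosecretory cells, had 2100, 3129 and 1632 (0.58). Nplp3 had 17786, 13022 and 14837 (-0.45) and Trissin 454, 342 and 341 (-0.41). In Pdf and Nplp3 the control lay between the PKA arrays, and in Trissin it was level with PKA-CA.

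Genes of the PKA and cAMP pathway itself were examined member by member. The arrays held 24, of which 21 were compared, and 18 were higher and 3 were lower. The median was 0.24. Of the 21 genes 18 were in the longest length class, and after subtraction the median was 0.10 with 14 above 0. With the ratios of a gene's probe sets averaged, the median was 0.09. The gene for the main catalytic subunit, Pka-C1, was not analysed here because no probe set carries its name alone.

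Among genes of cAMP synthesis, the adenylyl cyclase Ac76E had 596 in PKA-DN, 864 in PKA-CA and 648 in the control (0.54), and Ac13E had 1112, 1457 and 1184 (0.39). Ac78C was dim at 242, 280 and 199 (0.21), and rutabaga (rut) was nearly the same on all arrays at 520, 538 and 510 (0.05). The stimulatory G protein gene Galphas had 0.04, and Nf1, a Ras regulator needed for cyclase signalling, had 0.29. The classical memory gene rut thus had the smallest ratio of the 4 cyclases.

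All 5 phosphodiesterase genes were higher. Pde1c, a calcium-dependent enzyme gene, had 777 in PKA-DN, 1217 in PKA-CA and 1129 in the control (0.65) and was the one pathway gene 1.5-fold or more higher. Its other probe sets had 0.35, -0.22 and 2.18, the last of them below the negative controls on both PKA arrays. Dunce (dnc) had 627, 853 and 652 (0.45), Pde11 660, 876 and 739 (0.41), and Pde6 1036, 1280 and 1094 (0.31), while Pde9 had 0.05. For dnc, Pde11 and Pde6 the control was close to PKA-DN, and for Pde1c it was close to PKA-CA.

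Of the kinase subunits, the regulatory subunit gene Pka-R1 had 799 in PKA-DN, 1033 in PKA-CA and 782 in the control (0.37). The catalytic subunit gene Pka-C3 had 1548, 1615 and 1631 (0.06). Genes of proteins that anchor PKA went in different directions. Rugose (rg) had 854, 1220 and 1203 (0.51), spoon had 0.09, and Akap200 had 3968, 2591 and 3494 (-0.62), the lowest of the pathway and 1.5-fold or more lower.

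Epac, a cAMP-activated exchange factor gene outside the kinase branch, had 733, 991 and 781 (0.44). The transcriptional coactivator genes downstream of PKA were nejire (nej), at 390, 459 and 575 (0.24), and Crtc, at 1252, 1133 and 1276 (-0.14). The receptor kinase genes Gprk2 and Gprk1 had 0.16 and -0.09. Most members thus differed by less than the SD of 0.38 between probe sets of a gene.

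**Figure D4:**
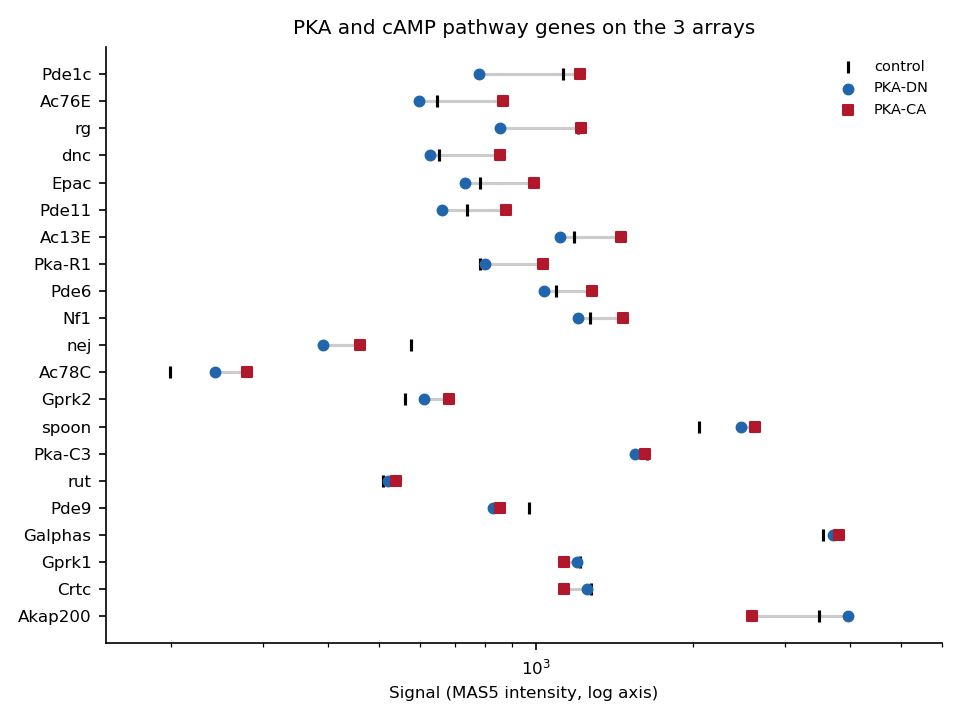
Signal (MAS5 intensity, log axis) of the 21 PKA and cAMP pathway genes compared, on the PKA-DN array (blue circles), the PKA-CA array (red squares) and the control array (black ticks), ordered by ratio. Pde1c is at the top with 0.65, rut and Galphas are nearly level at 0.05 and 0.04, and Akap200 at the bottom has -0.62.

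Genes enriched in the mushroom bodies, where the driver acts, had 13 of 14 higher with a median of 0.26 (0.13 after subtraction, when 10 were above 0). The guanine exchange factor gene trio, which guides Kenyon cell axons, had 1833 in PKA-DN, 2756 in PKA-CA and 2253 in the control (0.59). Next came rg and dnc, which the pathway list also holds. The transcription factor gene dac was level at 272, 273 and 283 (0.00), and Imp, an RNA-binding protein gene, had -0.03. Their median was the same as that of neuronal markers as a whole, 0.26 before and 0.13 after subtraction.

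Other kinase and RNA regulator genes tied to memory had 16 of 19 higher and a median of 0.27 (0.17). Pkc98E, of the protein kinase C family, had 980 in PKA-DN, 1792 in PKA-CA and 855 in the control (0.87), and staufen (stau), which localizes mRNA, had 1708, 2928 and 1888 (0.78). For both the control was close to PKA-DN. Crammer (cer), a cathepsin inhibitor gene, was lowest at 2673, 2095 and 2281 (-0.35). Genes induced by neuronal activity were near the background, with 7 of 12 higher and a median of 0.06 (0.02), and the capsid-like gene Arc1 had 6294, 6048 and 5739 (-0.06).

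Clock genes had 11 of 18 higher and a median of 0.15 (0.06 after subtraction). Pdp1, a transcription factor gene of the second feedback loop, had 2725 in PKA-DN, 5532 in PKA-CA and 4227 in the control (1.02), and clockwork orange (cwo), which encodes a repressor, had 1744, 2721 and 2279 (0.64), with 0.29 on its other probe set. Cyc, the partner of Clock, and cry, the blue light receptor gene, each had -0.25. The labels do not give the hour at which heads were frozen.

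**Figure D5:**
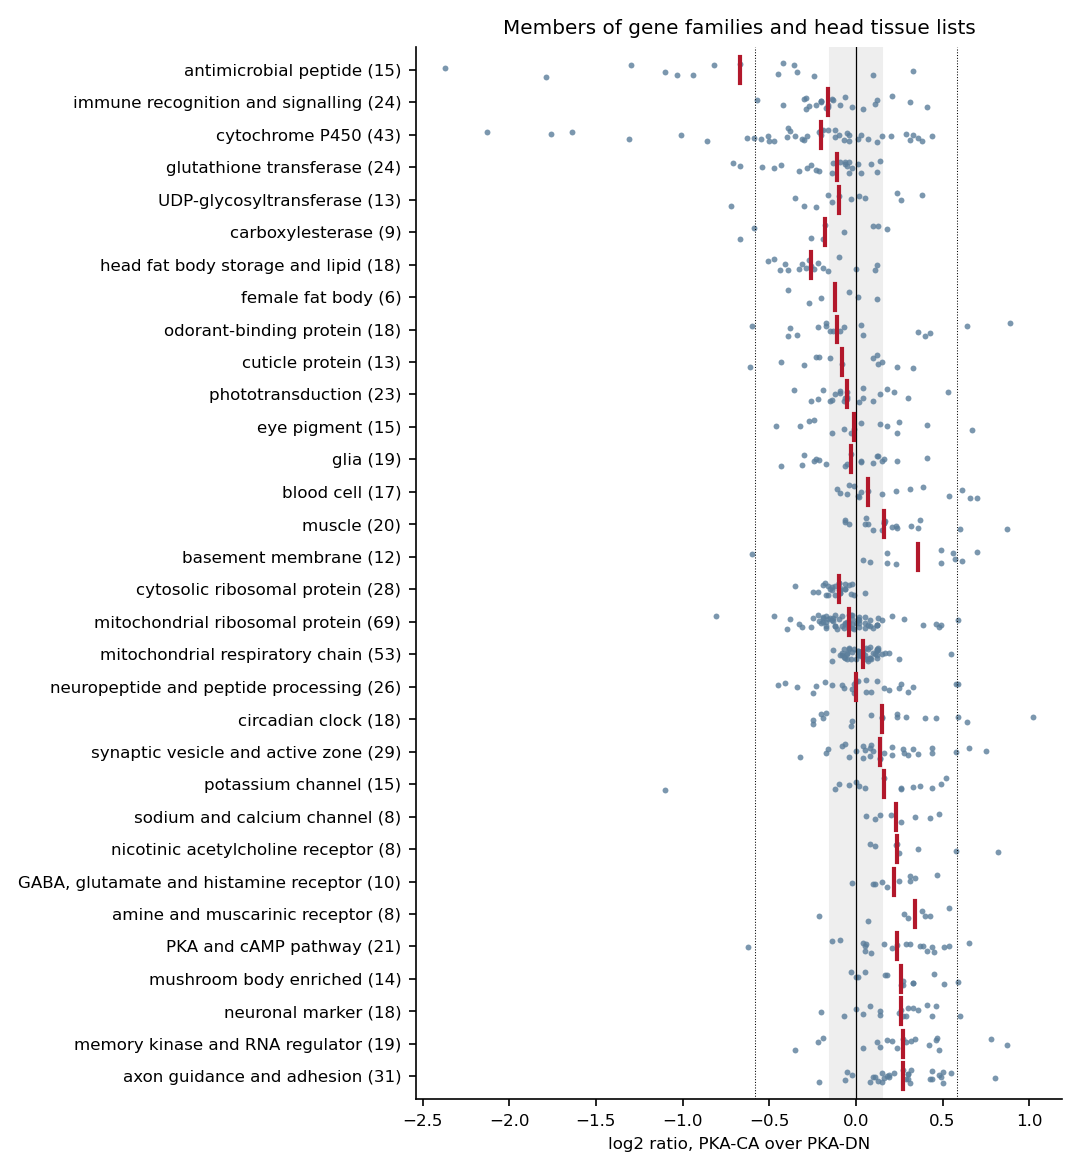
Log2 ratio of PKA-CA over PKA-DN for the members of 32 gene families and tissue lists (points, with the number compared in parentheses), with list medians as red bars. The grey band spans the quartiles of all 5991 genes, -0.15 to 0.15, and dotted lines mark 1.5-fold; the antimicrobial bar at -0.67 lies farthest left and the basement membrane bar at 0.36 farthest right.

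Basement membrane genes had the highest median of the lists with 3 or more members, 0.36 (0.24 after subtraction), with 11 of 12 higher. Both genes of type IV collagen, which are neighbours on chromosome 2L, passed 1.5-fold. Viking (vkg) had 1133 in PKA-DN, 1842 in PKA-CA and 1459 in the control (0.70) and Col4a1 had 1029, 1574 and 1309 (0.61), with the control midway for both. The laminin gene LanA had 0.57. The laminin gene wing blister (wb) had 431, 284 and 328 (-0.60), but 0.27 when its probe sets, most of them dim, were averaged.

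These proteins are made mainly by fat body and blood cells. The blood cell list had 12 of 17 higher and a median of 0.07 (0.02), and its members past 1.5-fold were vkg, Col4a1 and the scavenger receptor gene Sr-CI, at 307, 485 and 478 (0.66). The fat body list was lower, as described above. Some other members of the blood cell list, named after their values were seen, were higher. NimC1 had 485, 707 and 826 (0.54), srp 0.39, Hml 0.31 and Pxn, also a basement membrane gene, 0.23. Others were level, crq at 0.02, drpr at 0.03 and Tig at -0.04. Below the signal limit, eater had 93.6, 152 and 207 (0.70) and NimC2 71.6, 192 and 151 (1.42). Sr-CII, below the negative controls on both PKA arrays, had 15.8 and 1.9 (-3.05). The part of blood cells in the collagen values was not tested.

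Muscle genes had 17 of 20 higher and a median of 0.16 (0.06 after subtraction). The troponin C gene TpnC41C had 376 in PKA-DN, 687 in PKA-CA and 650 in the control (0.87), and upheld (up), the troponin T gene, had 688, 1046 and 571 (0.60). The actin gene Act87E, with 1657, 1589 and 978 (-0.06), and the LIM protein gene Mlp60A, with 4317, 4127 and 2072 (-0.06), were level between the PKA arrays and lower in the control. The muscle genes therefore differed in which array stood apart.

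Lists of the eye, glia and antenna lay near the background. Phototransduction genes had 9 of 23 higher and a median of -0.05 (-0.06), which was 0.02 under quantile normalization. The phosphatidylinositol transfer protein gene rdgB had 0.53, and laza had -0.36. Glial genes had 9 of 19 higher and a median of -0.03 (-0.07), between crim at -0.43 and ltl at 0.41, and the glial master regulator gene repo had 1347, 1506 and 1458 (0.16). Eye pigment genes had 7 of 15 higher and a median of -0.01 (-0.05), with garnet (g), an adaptor complex gene of pigment granules, at 505, 805 and 577 (0.67).

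Odorant-binding protein genes had 7 of 18 higher and a median of -0.11 (-0.05), with members at both ends. The neighbours Obp83cd and Obp83ef had 344 in PKA-DN, 637 in PKA-CA and 339 in the control (0.89) and 383, 595 and 405 (0.64). Obp8a had 383, 253 and 210 (-0.60). Of 166 genes for odorant, gustatory and ionotropic receptors 1 was bright enough, so these could not be compared.

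Genes of large complexes had medians near 0. Of 28 cytosolic ribosomal protein genes 27 were lower, with a median of -0.10 (-0.05 after subtraction), but the median was 0.01 under quantile normalization. Mitochondrial respiratory chain genes had 37 of 53 higher and a median of 0.04 (0.09), between -0.14 (ND-B14) and 0.55 (COX7AL2). All 10 genes of complex IV were higher, with a median of 0.08. Mitochondrial ribosomal protein genes had 26 of 69 higher with a median of -0.04 (0.01). Their ends were mRpS28 at 1277, 728 and 713 (-0.81) and mRpL42 at 449, 676 and 574 (0.59), both past 1.5-fold. Proteasome genes had 8 of 26 higher and a median of -0.07 (-0.01). Reference genes had a median of -0.04 (-0.01), which was 0.06 under quantile normalization.

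Single members or pairs stood apart in some families that were otherwise near 0. Of 17 Rab GTPase genes, Rab2, which acts in membrane traffic at the Golgi, had 841 in PKA-DN, 452 in PKA-CA and 445 in the control (-0.90), and the other 16 lay between -0.31 and 0.33. The list of oenocyte and fatty acid genes had a median of 0.06 (-0.03). Of its 8 genes compared, 2 were 1.5-fold or more higher, Elovl7 (1.08), described above, and the nuclear receptor gene svp. The latter had 712, 1117 and 831 (0.65), but its second probe set, at 293, 239 and 268, had -0.29. Cpr11B had 359, 236 and 410 (-0.61) among 13 cuticle protein genes with a median of -0.08 (-0.05). In Rab2 the PKA-DN array stood apart, and in Cpr11B the PKA-CA array did.

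By chromosome, median ratios were -0.01 on 2L and 2R, 0.00 on 3L and 3R and 0.02 on X, the last of which was -0.02 when the arrays were centred. The 52 genes of chromosome 4 had 0.10, and their median length of 10444 bases was above that of the other arms, where it was 2974 to 3461 bases. Of 5975 pairs of neighbouring compared genes, 10 had both members past 1.5-fold in the same direction and 7 in opposite directions. Among the 10 were vkg with Col4a1, Cyp4ac1 with Cyp4ac2, Drsl4 with Drsl5, Obp83cd with Obp83ef, and CG8654 with CG16898.

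Genes on no list numbered 5065, of which 2543 were higher and 2522 were lower. Their median was 0.0, near that of all genes, of which they make up most.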

How the data were processed

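RNA of whole heads was measured on 3 Affymetrix arrays, and the 2 of PKA-CA and PKA-DN flies were compared. The authors deposited 1 linear intensity for each probe set, and the submitters' processing notes name MAS5, with no version given in the sources used here. No further scaling or constant was applied. Names came from the array platform's annotation, where 14049 of 18952 probe sets were listed; 13647 had 1 symbol, 402 had several and 4903 were not listed. Symbols were updated through RefSeq for 13544 probe sets, and 103 kept the table's symbol. For 1094 genes with several probe sets the brightest was used.

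Neither genotype was replicated, and the precision is limited by the number of arrays. Genes named are the 15 highest and 15 lowest ratios, and per list up to 3 at either end, those past 1.5-fold, and all pathway and antimicrobial members. The members and the 63 lists were chosen with earlier results of these data known, and 4 family patterns were corrected after values were seen, because they caught unrelated genes. Of the lists, 7 had under 3 genes compared and 56 were summarised. Gene lengths came from RefSeq. Alternatives were other scalings (centred arrays, quantile, cyclic loess), 64 added to each signal, other signal filters, averaged probe sets and the mean over 3 arrays; both corrections for gene length were added after values were seen. The calculations used Python 3.11.15, NumPy 2.4.6, pandas 2.3.3 and statsmodels 0.14.6, with figures from Matplotlib 3.10.9, and were tested on simulated data.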

Additional observations from a re-analysis of the deposited data

How the results depend on the processing

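The count of genes at least 2-fold higher, 20 in the report, was 11 with 64 added to each signal, 9 in the upper 25% by signal, 663 with no signal filter, which admits signals at the level of the negative controls, and 32 when probe sets were averaged. The count of genes at least 2-fold lower, 22 in the report, was 7, 1196 and 34 in the last 3 of these settings and 18 with 64 added. Under the other settings (centred arrays, quantile normalization, cyclic loess, mean signal over 3 arrays and both corrections for gene length) the counts ranged from 14 to 20 and from 18 to 24. Of the 42 genes past 2-fold, 41 remained so under quantile normalization, 40 under cyclic loess, 36 with centred arrays, 34 when centred in 5 length classes, 33 with a smooth curve on length and 27 with 64 added to each signal. The median of cytosolic ribosomal protein genes became 0.01 under quantile normalization, and the ratio of wb became 0.27 when probe sets were averaged. Of 56 list medians, 11 moved by 0.1 or more with the length classes. Centring shifted all ratios by about the same amount, to a median of -0.032. No paired analysis was possible because each genotype had 1 array.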

Other observations

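Some genes were left out of the comparison because their mean signal over both arrays was below the limit, although 1 array was above it. Of these, named after their values were seen, 6 were 2-fold or more higher and 10 were 2-fold or more lower. Such genes are partly chosen by a difference between the arrays. The counts therefore have no background share and cannot be set against those of the compared genes. The widest difference was that of Cyp6a17, a P450 gene, with 26.2 in PKA-DN, 711 in PKA-CA and 241 in the control. Its PKA-DN signal was below the negative controls, so it was at least 9.14-fold higher in PKA-CA, against the direction of most P450 genes. Cyp4g1, the P450 of cuticular hydrocarbon synthesis in oenocytes, had 541, 76.0 and 766 in the same order, a log2 ratio of -2.83. The PKA-CA signal of Cyp4g1 was just above the highest negative control.

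The receptor family gene mthl6 had 960 in PKA-DN, 49.4 in PKA-CA and 28.5 in the control, at least 13.5-fold lower in PKA-CA. CG5246 had 560, 43.6 and 22.4, at least 7.9-fold lower. In both, PKA-DN was the one array above the negative controls. Dgat2, of a family of enzymes that make triglyceride, had 462, 112 and 78.9 (-2.05). The neuropeptide gene FMRFa had 94.9, 254 and 166 (1.42).

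Of 844 probe sets as bright as the compared genes but without a single name, 10 were 2-fold or more higher and 7 were 2-fold or more lower. These are larger shares than those of the 5991 compared genes, 0.334% and 0.367%. The unnamed probe sets were not reduced to 1 per gene, so the shares are not fully alike. One unnamed probe set had 2039 in PKA-DN, 127 in PKA-CA and 129 in the control (-4.01), a wider difference than that of any compared gene. Another had 4228, 416 and 201 (-3.35). One higher in PKA-CA had 4198, 9406 and 431 (1.16), so both PKA arrays lay far above the control, and the next had 2189, 4390 and 336 (1.0). Their genes are not given here.

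The RNA-binding protein gene Sxl, singled out after its values were seen, had 3 bright probe sets that gave nearly the same ratio, 0.66, 0.63 and 0.62. The brightest had 683 in PKA-DN, 1082 in PKA-CA and 996 in the control. The transporter gene Zip102B, with 694, 654 and 81.6, and Pepck2, with 1452, 1310 and 297, were level between the PKA arrays (-0.09 and -0.15) and far lower in the control.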
